A study of Rattus norvegicus with 6 samples.

Results

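Peroxisomes are small organelles bounded by a single membrane, abundant in hepatocytes, that shorten very long and branched fatty acids, finish bile acid synthesis, and oxidize urate, glycolate and D-amino acids. Their oxidases make hydrogen peroxide, which catalase breaks down in the same compartment. Proteins called peroxins, encoded by the Pex genes, build the organelle: they insert its membrane proteins, carry folded enzymes across the membrane and divide it. In rodent liver many of the fatty acid enzymes are induced by the nuclear receptor PPAR alpha, which works as a pair with a retinoid X receptor.

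The genes described here are 39 peroxisomal genes chosen by symbol, of which 38 were matched among the 32623 genes of the deposited table: 12 of 13 peroxins and all 26 enzymes and transporters. Pex19 was not matched by its symbol and is not analysed here. The samples are rat liver. In 3 of them (GM, the control) the vessels were embolized with blank microspheres, and in 3 (GZM) with zinc sulfide microspheres. Embolization, common to both groups, stops blood flow by plugging vessels; hepatocellular carcinoma is named in the title of the study. The labels give no strain, age, time after embolization or share of tumour. Replicates are numbered biosamples that may or may not be different animals, so the spread behind every p-value may be technical.

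Total counts ran from 13443115 to 16604067 per library. Levels are given as CPM, counts brought to a common library size, scaled by TMM factors, which correct for a few abundant genes taking a larger share of some libraries. These factors were 1.17 to 1.43 in GM and 0.715 to 0.793 in GZM. Scaling to library totals in their place moved the median log2 fold change of all 14298 tested genes by -0.83, so directions that turn on that scale are named. Hepatocyte markers, which check the labelled tissue, were present in every library but at unequal levels. The 20 matched markers summed to 28412, 20368 and 78163 CPM in GM 1 to 3 and to 212864, 232503 and 194046 CPM in GZM 1 to 3, and 19 of the 20 rose (median log2 fold change 2.47, or 1.72 with library totals), led by p-value by Cyp2c11, Pck1 and Tat. All 12 cell division genes fell, Mki67, Mcm3, Bub1 and Rrm2 among them, with sums of 649 to 1623 CPM in GM and 255 to 286 CPM in GZM. Of the other markers, 5 of 11 macrophage genes fell and 2 rose, 5 of 9 endothelial genes rose and 1 fell, 2 of 8 bile duct genes rose, 2 of 10 T-cell and natural killer genes fell, 1 of 9 stellate cell and fibroblast genes rose and 1 fell, and 1 of 6 neutrophil genes fell. With library totals the calls were 1 macrophage gene higher and 8 lower, 0 endothelial genes higher and 2 lower, 1 bile duct gene higher and 1 lower, 6 T-cell and natural killer genes lower, 0 stellate cell and fibroblast genes higher and 8 lower, and 2 neutrophil genes and 1 B-cell gene lower. Neither the 6 B-cell nor the 5 erythroid markers held a gene that passed edgeR's test (1 of each at an unadjusted p under 0.05, and 0 and 2 with DESeq2). By the same calls, 22.2% of all tested genes were higher and 21.7% lower, or 9.20% and 59.5% with library totals. No matched marker was at 0 in all libraries. In pieces of tissue, fewer cells of a type and less RNA per cell cannot be told apart, and the part of the hepatocyte share in the results below was not tested.

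Most peroxisomal genes were higher after zinc sulfide microspheres, the enzymes by more than the peroxins. By edgeR's quasi-likelihood test with Benjamini-Hochberg adjustment over all tested genes at 0.05, 32 of 38 rose, from 1.48-fold (Pex2) to 8.13-fold (Phyh), where 22.2% of all tested genes were called higher. None was called lower, against 21.7% of all genes (0 also at an unadjusted p under 0.05 and with DESeq2). Of the peroxins 11 of 12 rose, with log2 fold changes whose median was 1.16, and of the enzymes and transporters 21 of 26, with a median of 2.13, while the median of all genes was -0.09. The difference between these medians was not tested. No peroxin reached the median of the enzymes and transporters, and 20 of those 26 lay above the highest peroxin, Pex11g. Changes of at least 2-fold were called for 6 peroxins and 20 enzymes and transporters, a call that 14.4% of all genes received. With library totals 3 of 12 peroxins were called higher and 1 lower (median 0.34), and 20 of 26 enzymes and transporters higher and 3 lower (median 1.36), where 9.20% of all genes were called higher and 59.5% lower. On the TMM scale all 3 GZM libraries lay above all 3 GM libraries for 33 of the 38, as they did for 28.4% of all genes.

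**Figure D1:**
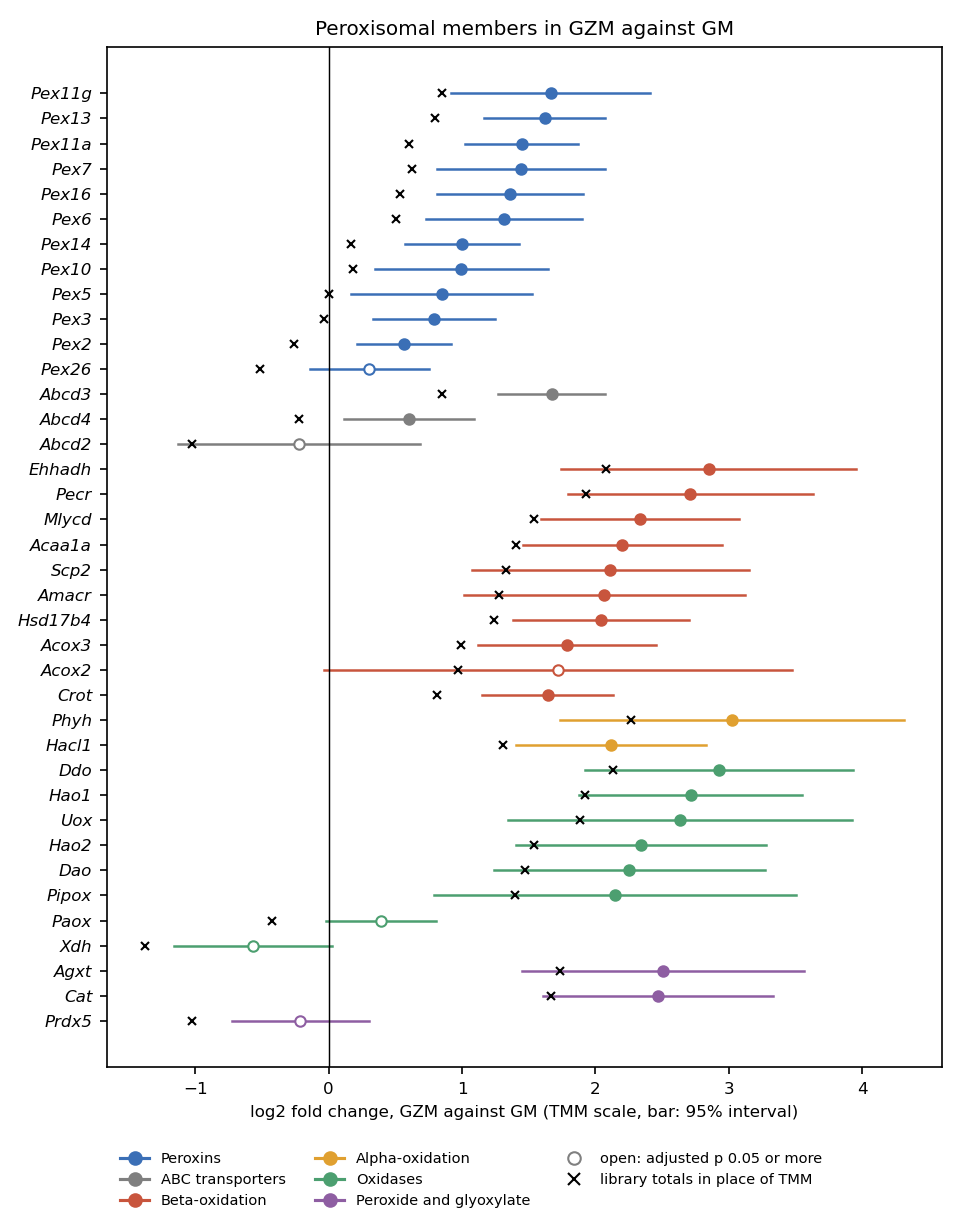
Log2 fold change of each of the 38 genes in GZM against GM on the TMM scale (horizontal axis), grouped by role, with 95% intervals. Filled points passed at an adjusted p under 0.05, open points did not, and crosses give the value with library totals. The peroxins lie between 0.31 and 1.67 and most enzymes beyond them.

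The difference between the classes can be read inside each library, where no scaling between libraries enters. The mean log2 level of the enzymes and transporters relative to that of the peroxins, each gene centred on its mean over the 6 libraries, was -0.47, -0.88 and 0.09 in GM 1 to 3, against 0.58, 0.36 and 0.32 in GZM 1 to 3. The groups did not overlap in this measure, and GM 3 stood nearest to GZM. The hepatocyte list ran the same way over the libraries, at -1.54, -2.08 and -0.42 in GM 1 to 3 and at least 1.17 in each GZM library. GM 3 was the highest GM library for 26 of 26 enzymes and transporters and for 9 of 12 peroxins, and for 38.0% of all tested genes. Without GM 3 the medians were 1.38 for peroxins and 2.73 for enzymes and transporters, with 33 of 38 genes called higher and none lower, where 24.6% of all genes were called higher and 23.5% lower.

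**Figure D2:**
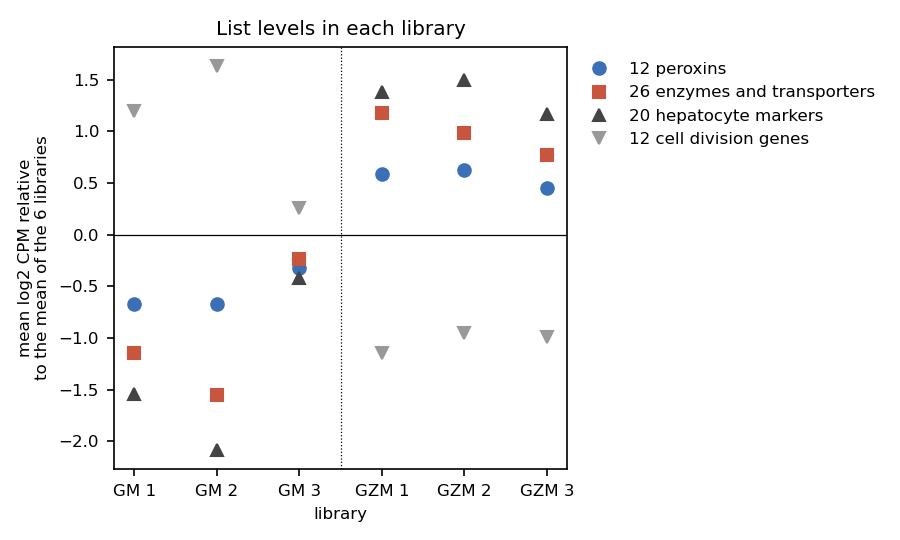
Mean log2 CPM of 4 gene lists in each library, relative to the mean of the 6 libraries (vertical axis). The enzymes and transporters follow the hepatocyte markers between the groups and within GM. The peroxins have a narrower range, and cell division genes run the other way.

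Promoter sequences from RefSeq (build GRCr8, 250 bases before to 50 after the start of the gene) were matched for 36 of the 38 genes, with 37 promoters in all. PPAR alpha with its partner binds a pair of AGGTCA elements with 1 base between them. That pair, AGGTCA then any base then AGGTCA, occurred on neither strand of these promoters, and nor did a looser pair of AGGNCA elements with the same spacing. Among all 33469 promoters they occurred in 0.0538% and 0.415%. At such shares no match is likely in 37 promoters, so their absence tells nothing of these genes. Sequence outside this window was not searched. The single element AGGTCA, which both pairs can hold, occurred on either strand in 8 of the 37 promoters (21.6%), against 16.2% of all. The sequences around 5 of these genes are shown because they span the range of responses: the strong risers Uox, Cat and Dao, the only peroxin with a match, Pex11g, and Abcd2, which did not pass. Capitals mark AGGTCA, or TGACCT where it lies on the opposite strand, and each sequence is read along the strand of its gene.
Uox, chr2:238146968-238147076, plus strand: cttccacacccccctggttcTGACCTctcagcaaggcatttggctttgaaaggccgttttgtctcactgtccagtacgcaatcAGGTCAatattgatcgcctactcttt
Cat, chr3:110329670-110329715, minus strand: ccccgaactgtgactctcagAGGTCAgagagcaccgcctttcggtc
Dao, chr12:48273319-48273364, minus strand: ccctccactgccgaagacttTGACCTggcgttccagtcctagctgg
Pex11g, chr12:6310504-6310549, minus strand: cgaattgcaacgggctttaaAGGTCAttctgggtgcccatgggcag
Abcd2, chr7:124191362-124191407, minus strand: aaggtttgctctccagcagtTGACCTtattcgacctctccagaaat
Uox holds the element in both orientations, and Abcd2, which did not pass, carries it too. Most of the genes that rose had promoters without it.

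Among the 12 peroxins the largest fold changes were those of Pex11g, Pex13 and Pex11a. Pex13 (ENSRNOG00000054896), a membrane subunit of the complex where cargo receptors dock, stood at 27.1, 21.8 and 35.1 CPM in GM 1 to 3 and at 87.5, 91.1 and 79.5 CPM in GZM 1 to 3. The groups were far apart, and the gene rose 3.07-fold (log2 fold change 1.62 ± 0.20 SE, adjusted p = 0.00227), and by 0.80 with library totals (adjusted p = 0.00414). Pex13 overlaps Pus10 on the opposite strand, which had similar levels (29.8 CPM in GM, 38.1 in GZM, not called), and whether counting used the strand is not given in the sources used here. Its docking partner Pex14 rose less, by 1.00 ± 0.18, from 15.0 ± 1.60 to 30.1 ± 4.68 CPM (SD, n = 3 each; edgeR adjusted p = 0.00518), and with library totals by 0.17 without passing. Per length, Pex13 was 1.08 to 1.57 times Pex14 in GM and 1.95 to 2.39 times in GZM.

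Pex11a, which elongates and divides peroxisomes and is the inducible form of its family, had 7.81, 8.47 and 7.92 CPM in GM and 21.3, 24.9 and 19.9 CPM in GZM. Its GM libraries lay close together, GM 3 included, and it rose by 1.45 (adjusted p = 0.00236; 0.60 with library totals, adjusted p = 0.033). Pex11g, a relative, rose by 1.67 on small counts, 38, 34 and 44 in the GM libraries against 44, 72 and 81 in the GZM libraries.

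The import receptors carry enzymes from the cytosol to the membrane. Pex7, which carries enzymes with the N-terminal targeting signal, had 5.59, 4.00 and 6.94 CPM in GM and 17.6, 14.9 and 12.5 CPM in GZM, and rose by 1.44 (adjusted p = 0.00549; 0.62 and adjusted p = 0.0592 with library totals). Pex5, the receptor for the more common C-terminal signal, had only 46 to 81 counts a library, at 2.36, 3.45 and 2.52 CPM in GM and 5.82, 4.34 and 4.87 CPM in GZM. Its call was marginal (0.85 ± 0.29, edgeR adjusted p = 0.0486). Leaving out a library ended it in 5 of 6 cases (adjusted p 0.0783 to 0.145), all but GM 2, and with library totals the value was 0.01. The difference in response between Pex7 and Pex5 was not tested; per length Pex7 was 5.00, 2.45 and 5.82 times Pex5 in GM 1 to 3 and 6.38, 7.26 and 5.42 times in GZM 1 to 3, so the groups overlapped in this ratio.

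Of the receptor recycling genes, Pex6 passed and Pex26 did not. Pex6, an ATPase that pulls Pex5 back out of the membrane, stood at 15.9, 17.5 and 29.3 CPM in GM and 58.0, 54.2 and 43.7 CPM in GZM and rose by 1.31 (adjusted p = 0.00597; 0.51, adjusted p = 0.0575, with library totals). Its membrane anchor Pex26 had 13.3, 16.7 and 19.2 CPM in GM and 21.2, 20.6 and 18.9 CPM in GZM, so that GM 3 overlapped GZM 3. Pex26 did not pass (0.31, 95% interval -0.14 to 0.75, adjusted p = 0.228), and was called lower with library totals (-0.52, adjusted p = 0.0392).

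The ubiquitin ligase subunits of the import machinery among these genes, Pex2 and Pex10, rose by less than the peroxin median of 1.16. Pex2 had 25.3, 25.1 and 28.0 CPM in GM and 33.5, 40.3 and 42.3 CPM in GZM (0.57 ± 0.15, adjusted p = 0.0193), and Pex10 rose by 0.99 (adjusted p = 0.0232), from 4.13 to 6.99 CPM in GM to 9.53 to 12.2 in GZM. Pex2 lost its call without GM 1, GZM 2 or GZM 3 (adjusted p from 0.0691 to 0.0837) and turned to -0.26 with library totals. Pex10 lost it without GM 1, GM 2, GZM 2 or GZM 3 (0.0538 to 0.0977). Of the genes for membrane protein insertion, Pex16 rose by 1.36, from 11.5, 15.7 and 18.7 CPM in GM to 46.8, 40.5 and 30.7 CPM in GZM (adjusted p = 0.00426; 0.54, adjusted p = 0.0527, with library totals). Pex3, the anchor for that insertion, rose by 0.79 (adjusted p = 0.0147), a call lost without GZM 2 (0.0503) or GZM 3 (0.0522), and stood at -0.037 with library totals.

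The ABC transporters carry acyl-CoAs through the membrane. Abcd3, which takes up branched and dicarboxylic acyl-CoAs and bile acid precursors, had 60.2, 51.2 and 67.3 CPM in GM and 175, 203 and 191 CPM in GZM. It was 3.19-fold higher with little spread in either group (log2 fold change 1.67 ± 0.17 SE, adjusted p = 0.00192), also with library totals (0.85, adjusted p = 0.00316). Abcd2, a transporter of very long chain acyl-CoAs, was at 3.13, 1.87 and 4.22 CPM in GM and 3.31, 1.98 and 2.59 CPM in GZM. The groups overlapped and it did not pass (-0.22, interval -1.13 to 0.68; with library totals -1.03, adjusted p = 0.0393). Abcd4, related in sequence but known as a lysosomal cobalamin transporter, rose by 0.60 (adjusted p = 0.0486), a call that held without GM 3 but not without GM 1, GM 2 or any GZM library (0.0947 to 0.134), and turning to -0.22 with library totals.

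Beta-oxidation genes rose in 9 of 10 cases, with a median of 2.09 (1.30 with library totals, where 9 passed too). Of all tested genes 22.2% were called higher, or 9.20% with library totals. Ehhadh (ENSRNOG00000001770), the bifunctional enzyme for straight and dicarboxylic chains and a classical PPAR alpha target, had 28.5, 18.3 and 71.0 CPM in GM and 283, 323 and 243 CPM in GZM. Every GZM library was over 3 times the highest GM library, and the gene rose 7.21-fold (2.85 ± 0.48 SE, adjusted p = 0.00384). Hsd17b4, the bifunctional enzyme for branched chains and bile acid precursors, started higher, at 118, 96.0 and 192 CPM in GM, and reached 537, 593 and 539 CPM in GZM (2.04, adjusted p = 0.00253). Per length, Ehhadh was 0.16 to 0.32 times Hsd17b4 in GM and 0.39 to 0.47 times in GZM.

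The acyl-CoA oxidases start the pathway. Acox3, which acts on branched acyl-CoAs, rose by 1.79 (adjusted p = 0.00352), from 54.3, 37.6 and 84.5 CPM in GM to 216, 191 and 202 CPM in GZM. Acox2, the oxidase of bile acid precursors, had 40.02, 21.1 and 134.5 CPM in GM and 414, 130.4 and 100.3 CPM in GZM. GM 3 lay above both GZM 2 and GZM 3, GZM 1 stood far above the rest, and Acox2 did not pass (1.72, interval -0.03 to 3.48, adjusted p = 0.101). Without GM 3 it passed (2.85, adjusted p = 0.00821).

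The last steps also rose. The thiolase gene Acaa1a rose by 2.20 (adjusted p = 0.00283), from 30.1, 30.3 and 62.7 CPM in GM to 223, 186 and 157 CPM in GZM; it has a close copy in the rat, Acaa1b, which was not matched by symbol, so the reads of the pair may be shared. Scp2, which encodes both a thiolase for branched chains and a lipid carrier, had 233, 174 and 501 CPM in GM and 1763, 1246 and 918 CPM in GZM (2.11, adjusted p = 0.00816). Amacr, the racemase that readies branched chains for oxidation, rose by 2.07, with 299, 206 and 141 CPM in GZM against 40.6, 27.3 and 86.1 in GM. In Scp2 and Amacr, as in Acox2, GZM 1 was the highest library and GZM 3 the lowest of its group. Among the GZM libraries, GZM 1 was the highest for 19 of the 26 enzymes and transporters, and GZM 3 the lowest for 18.

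Products and precursors are handled by other members. Crot, which passes shortened chains on as carnitine esters, rose by 1.64 (adjusted p = 0.00238). Pecr, an enoyl-CoA reductase, rose by 2.71, from 37.5, 26.4 and 79.5 CPM in GM to 315, 339 and 285 CPM in GZM. Mlycd, malonyl-CoA decarboxylase, which is found in mitochondria and cytosol too, rose by 2.34, with GZM libraries between 75.5 and 84.4 CPM and GM libraries between 9.49 and 24.4.

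Alpha-oxidation removes 1 carbon from phytanic acid, whose methyl branch blocks beta-oxidation. Phyh (ENSRNOG00000018044), the hydroxylase that starts it, had 74.6, 48.3 and 220.3 CPM in GM and 812, 1135 and 843 CPM in GZM. It showed the largest fold change of the 38, 8.13-fold (3.02 ± 0.56 SE, interval 1.73 to 4.31, adjusted p = 0.00517; 2.26 with library totals), and moved from the fifth to the second highest level per length among them. Hacl1, the lyase of a later step, rose by 2.12 (adjusted p = 0.00273), from 30.1, 24.3 and 45.6 CPM in GM to 104.5, 192 and 137 CPM in GZM. For both genes GZM 1 was the lowest GZM library, while it was the highest for 19 of the 26 enzymes and transporters.

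**Figure D3:**
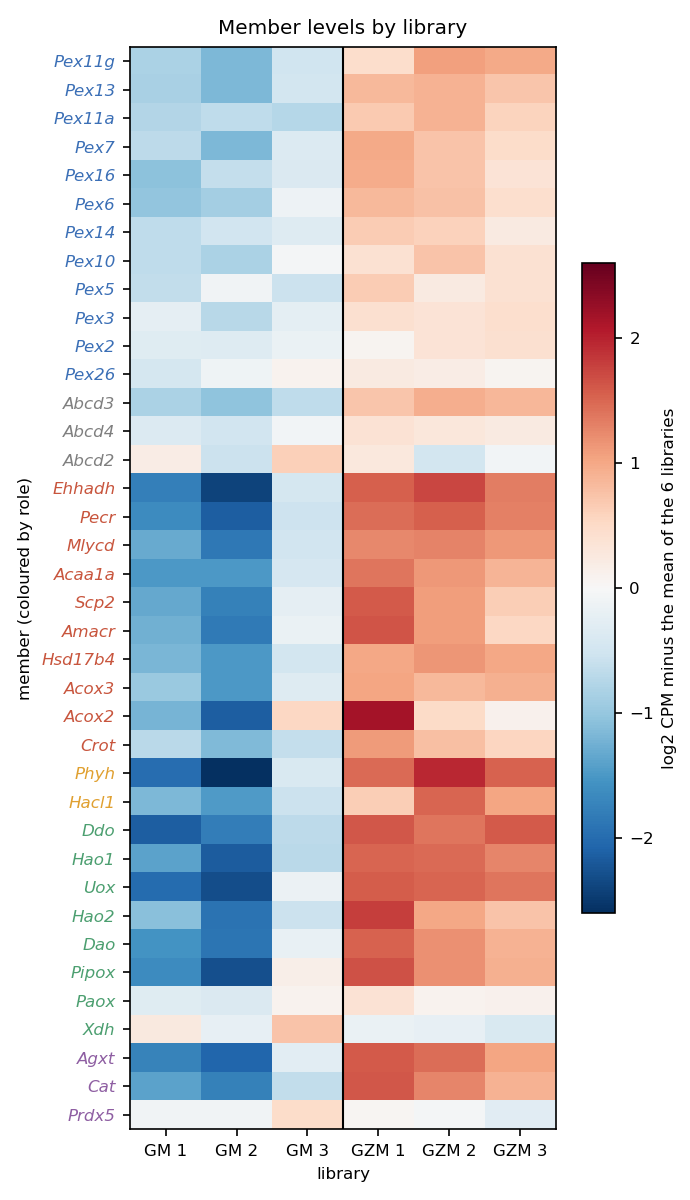
Log2 CPM of each of the 38 genes (rows, coloured by role) in each library (columns), minus the mean of the 6 libraries. GM 3 is paler than GM 1 and GM 2 for most enzymes, though not for Xdh and Prdx5. Prdx5, Xdh, Paox, Pex26 and Abcd2 show little contrast between the groups.

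Of the oxidases 6 of 8 rose (median 2.30), where 22.2% of all tested genes were called higher. With library totals 6 were called higher and 1 lower (median 1.51), where 9.20% and 59.5% of all genes were. Hao1 (ENSRNOG00000004601), glycolate oxidase, had 58.5, 34.4 and 94.9 CPM in GM and 439, 424 and 369 CPM in GZM (2.71 ± 0.36, edgeR adjusted p = 0.0024). Hao2, which oxidizes longer hydroxy acids, rose by 2.34, and its GZM libraries were less even, at 361, 208 and 174 CPM. Agxt, which converts the glyoxylate that Hao1 makes into glycine, rose by 2.51, from 9.40, 7.58 and 26.1 CPM in GM to 94.8, 85.6 and 63.8 CPM in GZM (adjusted p = 0.00496). The D-amino acid oxidases, Dao for neutral and Ddo for acidic substrates, rose by 2.25 and 2.92 (adjusted p = 0.00607 and 0.00289), Ddo on small counts of 7, 10 and 18 in the GM libraries against 45, 41 and 57 in the GZM libraries. Pipox, which oxidizes pipecolic acid and sarcosine, rose by 2.15 (adjusted p = 0.0206), with GM 3 at 70.4 CPM against 20.3 and 13.1 in GM 1 and GM 2; the call was lost without GM 1 (0.0729), GZM 1 (0.0535) or GZM 2 (0.0506).

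The genes that make and break down urate went apart. Uox (ENSRNOG00000016339), urate oxidase, which forms the crystalline core of rat liver peroxisomes, had 63.7, 52.0 and 230.4 CPM in GM and 755, 725 and 667 CPM in GZM (2.63 ± 0.56, edgeR adjusted p = 0.00816). Xdh, the mainly cytosolic enzyme that makes urate, had 271, 198 and 382 CPM in GM and 204, 197 and 174 CPM in GZM. GM 2 lay inside the GZM range and Xdh did not pass (-0.57, interval -1.16 to 0.02, adjusted p = 0.107), except without GM 2 (-0.78, adjusted p = 0.0307) and with library totals (-1.38, adjusted p = 0.00148). Per length the level of Uox was 0.68, 0.76 and 1.74 times that of Xdh in GM 1 to 3 and 10.7, 10.6 and 11.1 times in GZM 1 to 3. Paox, which oxidizes acetylated polyamines, did not pass (0.39, interval -0.02 to 0.80, adjusted p = 0.111), but passed without GM 3 (0.59, adjusted p = 0.0182), and was -0.43 with library totals.

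Of the peroxide-removing genes, Cat passed and Prdx5 did not. Catalase (Cat, ENSRNOG00000008364) had 347, 270.3 and 587 CPM in GM and 2783, 2190 and 1689 CPM in GZM, and rose 5.53-fold (2.47 ± 0.37 SE, adjusted p = 0.003; 1.67 with library totals). Prdx5, a peroxiredoxin of mitochondria and cytosol as well as peroxisomes, had 238, 241 and 353 CPM in GM and 265, 245 and 208 CPM in GZM and did not pass (-0.21, interval -0.73 to 0.30, adjusted p = 0.465), but was called lower with library totals (-1.03, adjusted p = 0.00239). Per length Prdx5 had the highest level of the 38 in GM and Cat the highest in GZM, the ratio of Cat to Prdx5 being 0.47, 0.36 and 0.53 in GM 1 to 3 and 3.37, 2.87 and 2.61 in GZM 1 to 3. The least abundant per length were Abcd2, Pex5 and Ddo in both groups.

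**Figure D4:**
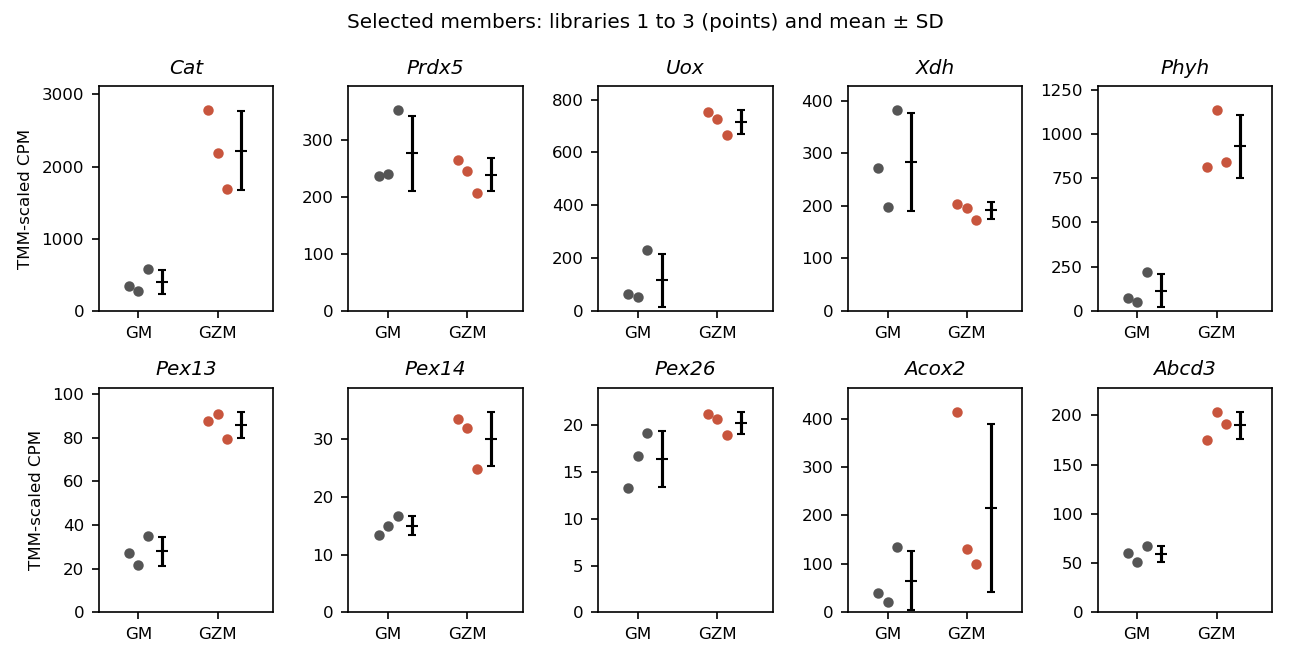
TMM-scaled CPM of 10 genes in each library (points, in the order of replicate numbers) with the mean and SD of each group (n = 3). Cat, Uox, Phyh, Pex13, Pex14 and Abcd3 separate the groups, while those of Prdx5, Xdh, Pex26 and Acox2 overlap.

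Variation inside GM also differed between the classes, while inside GZM it hardly did. The highest GM library exceeded the lowest by a median of 2.57-fold for enzymes and transporters and 1.51-fold for peroxins, against 1.54-fold over all tested genes. In GZM the values were 1.36, 1.30 and 1.34. The 38 genes together took 0.291%, 0.229% and 0.430% of all counts in GM 1 to 3 and 0.810%, 0.686% and 0.617% in GZM 1 to 3. The peroxins alone took 0.0202% to 0.0218% in GM and 0.0249% to 0.0267% in GZM.

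A further list of peroxisomal genes, 41 of them tested, was measured beside these: 27 rose and 4 fell, with a median of 1.14. With library totals 17 were called higher and 7 lower, with a median of 0.30. Of all tested genes 22.2% were called higher and 21.7% lower, or 9.20% and 59.5% with library totals. Lonp2, the peroxisomal protease, rose by 2.01 and the reductase gene Dhrs4 by 1.76. Far1, which makes the fatty alcohol for ether lipids, fell from 65.0, 60.6 and 50.4 CPM in GM to 17.2, 18.8 and 18.7 CPM in GZM (-1.68 ± 0.16 SE, adjusted p = 0.00185). Agps, which inserts that alcohol into ether lipids, fell too (-2.02, adjusted p = 0.00382), from 22.1, 16.9 and 12.3 CPM to 2.61, 5.28 and 4.71 CPM. Gnpat, the acyltransferase of the step before, had 33.7 to 35.2 CPM in GM and 32.6 to 33.5 CPM in GZM and did not pass (-0.05, interval -0.35 to 0.24; with library totals -0.89, adjusted p = 0.00266). The others that fell were Dnm1l, whose dynamin-like protein cuts peroxisomes and mitochondria apart (-0.95, adjusted p = 0.0152, or 0.0565 without GM 1), and Trim37, a ubiquitin ligase (-1.14, adjusted p = 0.0141). Agps, Gnpat, Dnm1l and Trim37 are named after their values were seen.

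Among 14 regulators 7 rose and 1 fell, where 22.2% and 21.7% of all genes did, but with library totals 3 were called higher and 6 lower, where 9.20% and 59.5% of all genes were. Ppara, the receptor that induces many of the fatty acid enzymes, rose by 1.29 (edgeR adjusted p = 0.00615) on 50 to 83 counts a library. It had 2.41, 2.64 and 2.98 CPM in GM and 6.32, 6.88 and 6.52 CPM in GZM. With library totals it was 0.47 and did not pass (edgeR adjusted p = 0.15). Of its partners, Rxrg rose by 2.82, from 3.11 to 8.07 CPM in GM to 34.0 CPM or more in GZM, and Rxra by 1.14 (adjusted p = 0.0187), a call lost without GM 1 (0.0624) or GZM 1 (0.0545) and with library totals. Pparg, the related receptor of fat cells, was the gene that fell (-2.07, adjusted p = 0.00474), while Hnf4a rose by 2.57 and Nr1i2, the xenobiotic receptor PXR, by 2.86. The coactivator gene Ppargc1a had 1 to 18 counts a library and did not pass (0.82 ± 0.70, adjusted p = 0.37; -0.018 with library totals). Of 21 tested PPAR alpha targets outside the peroxisome 19 rose, with a median of 2.05 (1.26 with library totals, 17 passing), led by p-value by Acot2 (2.23), Cyp4a1 (3.38), Cyp4a2 (4.43), Cpt2 (2.37) and Acadl (1.79).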

How the data were processed

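Rat liver RNA was sequenced in 6 libraries, grouped by their titles. Per the labels' protocols, polyadenylated RNA was made into strand-specific libraries with dUTP. Aligner, counter and strand setting: not given in the sources used here. Per the submitters' processing notes the build is mRatBN 7.2, but gene ends in the table reach 282724300 on chromosome 1, past the end of that chromosome in the build, so no position from the table is printed. Per the file headers the table holds a raw count and an FPKM for each gene and library; the FPKM that the authors deposited equals the count divided by exon length and library total, all 195738 within 0.01, and served that check alone. The columns for GZM spell it ZGM.

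The main test was edgeR 4.0.16 (R 4.3.3), quasi-likelihood, with TMM factors, Benjamini-Hochberg adjustment and edgeR's filterByExpr, which all 38 genes passed; no covariate was used. Standard errors and 95% intervals come from the quasi-F value. Per-length levels divide CPM by the deposited exon length. On simulated counts for the 14298 genes of GZM against GM, 14% of the 2-fold changes were found, 79% of the 4-fold changes, and 3 genes were called wrongly. In that simulation 100 genes changed at each fold, where 3181 genes were called higher and 3104 lower in the data. The adjusted threshold is stricter when fewer genes change, so these rates need not hold for the data. The alternatives were median-of-ratios factors, library totals, no filter, DESeq2 1.42.0, the replicate number as a block, and leaving out each library. The peroxisomal genes and the 4 pathway and 10 marker lists (232 symbols with the 39, of which 10 were not matched) were chosen with earlier results of these data known. Named beside the 38 are up to 5 called genes of smallest p from each pathway list, 8 chosen for the subject, up to 4 each of the hepatocyte and cell division lists, and a few said to be chosen later; some of these are not reported here; pairs for ratios were chosen after their values were seen. Protein targeting signals were not analysed here. Figures were drawn with matplotlib 3.10.9.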

Additional observations from a re-analysis of the deposited data

How the results depend on the processing

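Median-of-ratios factors and DESeq2 changed no call among the 38 genes. With library totals 1315 genes of all tested were called higher and 8513 lower, against 3181 and 3104, and the values named in the text were 3 peroxins higher and 1 lower, 3 enzymes and transporters lower, 4 of the 38 lower, and medians of 0.34 and 1.36. Of the 38, 5 turned: Pex2 (-0.26), Pex3 (-0.037), Pex26 (-0.52), Abcd4 (-0.22) and Paox (-0.43). Outside them Tax1bp1 (-0.26), Map1lc3b (-0.13) and Ppargc1a (-0.018) turned as well. Leaving out each library in turn gave 2112 to 3592 genes higher and 1665 to 3432 lower over all genes, the fewest of both without GZM 2. It gave 7 to 10 peroxins higher (7 without GZM 2 or GZM 3), 19 to 23 enzymes and transporters higher and 0 to 1 lower (Xdh without GM 2, also the 1 of the 38), and medians of 1.04 to 1.38 for peroxins and 1.88 to 2.73 for enzymes and transporters. Over these fits Abcd2 ran from -0.49 to 0.11 and Prdx5 from -0.31 to 0.039, both turning without GM 3, neither passing. The replicate numbers gave no sign of pairing: the correlations of same-numbered deviations were -0.14, 0.16 and -0.27. Those of differently numbered ones ran from -0.22 to 0.30, and so few libraries cannot settle whether the samples were paired. With the replicate block 10 peroxins and 20 enzymes and transporters were higher, with medians of 1.19 and 2.26, and Pex5 (adjusted p = 0.105) and Abcd4 (0.106) lost their calls. Without the filter the same genes did (0.0783 and 0.0904). Counts under about 100 a library limit what can be said of Pex5, Pex11g, Abcd2 and Ddo.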

Other observations

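Receptors that mark peroxisomes and other cargo for autophagy, with the core genes of that process, were measured as a list of 10. Of these 5 rose and 1, Atg7, fell (-0.50, edgeR adjusted p = 0.0487, a call made in no fit with a library left out). The median log2 fold change was 0.51 and turned to -0.32 with library totals, where 2 were called higher and 2 lower. Of all tested genes 22.2% were called higher and 21.7% lower, or 9.20% and 59.5% with library totals. Optn, an autophagy receptor, rose by 2.12, from 51.7 ± 22.1 CPM in GM to 224 ± 25.6 CPM in GZM (SD, n = 3 each; edgeR adjusted p = 0.00287), and Gabarapl1, which coats forming autophagosomes, by 1.41, calls also made with each library left out. Sqstm1, the receptor p62, rose by 1.06 and did not pass with library totals. Map1lc3b (0.69) and Tax1bp1 (0.57) passed, each with a call lost in 4 or 5 of the 6 fits without 1 library.

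Ratios of levels per length inside each library, which no scaling between libraries touches, were computed for pairs of the 38 genes. Abcd3 was 5.21 to 5.67 times Abcd4 in GM and 9.88 to 12.2 times in GZM, and Pex6 was 0.79 to 1.15 times Pex26 in GM and 1.74 to 2.07 times in GZM. Hao1 was 1.77, 1.85 and 1.99 times Hao2 in GM and 1.79 times in GZM 1, against 3.00 and 3.12 times in GZM 2 and GZM 3. Acox3 was 0.60 times Acox2 in GM 3 and 0.50 times in GZM 1 and 1.30 to 1.94 times in the other 4 libraries. Phyh was 8.81 and 7.07 times Hacl1 in GM 1 and GM 2, and 17.2 times in GM 3, near the 21.0 to 27.6 times of GZM.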
